A study of Mus musculus with 12 samples.

Results

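The genes described here are the Slit ligands Slit1, Slit2 and Slit3, their receptors Robo1 and Robo2, the netrin ligand Ntn1 and the netrin receptors Dcc, Unc5b, Unc5c and Unc5d. They were taken by symbol, and all 10 had a row among the 25674 genes of the count table. Counts came from spiral ganglion neurons, which link the hair cells of the cochlea to the auditory hindbrain, taken from E14.5 mouse embryos. By the labels, each of the 12 libraries held 100 neurons sorted for the red reporter tdTomato from the inner ears of a single embryo. The embryos were of either sex and came from 4 litters on a mixed C57BL/6/sv129 background.

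The 6 control libraries had the genotype Neurod1Cre; Rosa26tdTOM. The 6 libraries labelled Isl1CKO had the genotype Neurod1Cre;Isl1loxP/loxP;Rosa26tdTOM, in which Cre removes the floxed segment of Isl1, a LIM homeobox transcription factor gene. Every group therefore carried Cre and the reporter, and the genotype given for controls lists no floxed allele. Cre was driven by a Neurod1 BAC transgene made by pronuclear injection, so deletion and labelling were limited to cells in which that transgene was or had been active. The design text calls the samples biological replicates, while a label tag calls them technical. The p-values measure the spread between these libraries, and the labels do not settle whether that is a spread between separate embryos. The comparison asks which guidance genes differ in these neurons when Isl1 is targeted.

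Slit proteins are secreted and usually repel axons that carry ROBO receptors on their surface. Netrin-1 is a secreted cue that attracts axons through DCC and repels them where UNC5 receptors act alone or together with DCC. In the developing ear and hindbrain these pathways are known for guiding auditory axons and for positioning neurons and their processes.

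Total counts ran from 11895603 to 13857480 per library. Levels are given in CPM, counts per 1000000 of the TMM-scaled library total, and 3 counts, used as a floor, came to between 0.219 and 0.250 CPM. The floor covers counting error only, since amplified reads without molecular identifiers are not independent molecules, whereas the intervals of fold changes come from the fit over the 12 libraries and include their spread. Isl1 itself ranged from 1050 to 1589 CPM in libraries labelled Isl1CKO and from 1171 to 1777 CPM in controls, and edgeR put the difference at -0.15 ± 0.11 (SE) on the log2 scale, adjusted p = 0.460. Counts over the whole gene do not show whether the floxed segment is missing, so the genotype rests on the labels. The neuronal marker list (12 genes, all tested, 3 higher and 3 lower) summed to between 9551 and 12884 CPM in libraries labelled Isl1CKO and between 10037 and 12325 CPM in controls. Among these markers Gata3, a transcription factor gene of spiral ganglion neurons, had a mean of 1474 CPM in controls but 225 CPM in libraries labelled Isl1CKO (edgeR adjusted p = 0.00961). Its range was 1008 to 1657 CPM in controls and a wide 18.2 to 528 CPM in libraries labelled Isl1CKO. Elavl4 (means of 1708 CPM in controls and 1219 CPM in Isl1CKO) and Ntrk3 (276 and 105 CPM) were also called lower. Called higher were Neurod1 (1471 CPM in controls and 2715 CPM in Isl1CKO), Slc17a6 (365 and 667 CPM) and Scg2 (1.86 and 11.4 CPM). Replicates 2, 3 and 5 of the libraries labelled Isl1CKO held Xist at 62.9, 77.8 and 132 CPM together with Y-linked genes at a mean of 61.0, 87.3 and 35.7 CPM, although each was labelled as a single embryo. Results are therefore also given without these 3 libraries.

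Of the 10 guidance genes, 8 passed the filter on low counts and 5 of these were called, 3 higher and 2 lower, in edgeR's quasi-likelihood test at a Benjamini-Hochberg adjusted p under 0.05. The same test called 10.2% of all 14813 tested genes, 5.01% higher and 5.19% lower. Slit2, Robo2 and Dcc rose in libraries labelled Isl1CKO, and Unc5b and Unc5c fell. Slit1, Robo1 and Unc5d did not pass the threshold, and Slit3 and Ntn1 were too low to be tested. For each of the 5 called genes the groups did not overlap. Of all tested genes 3.13% had every library labelled Isl1CKO above every control and 3.65% had every one below, or 6.78% in either direction. The median absolute log2 fold change was 1.84 over the 8 tested members and 0.27 over all tested genes. In these bulk libraries fewer cells of a type and less RNA per cell cannot be told apart.

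**Figure D1:**
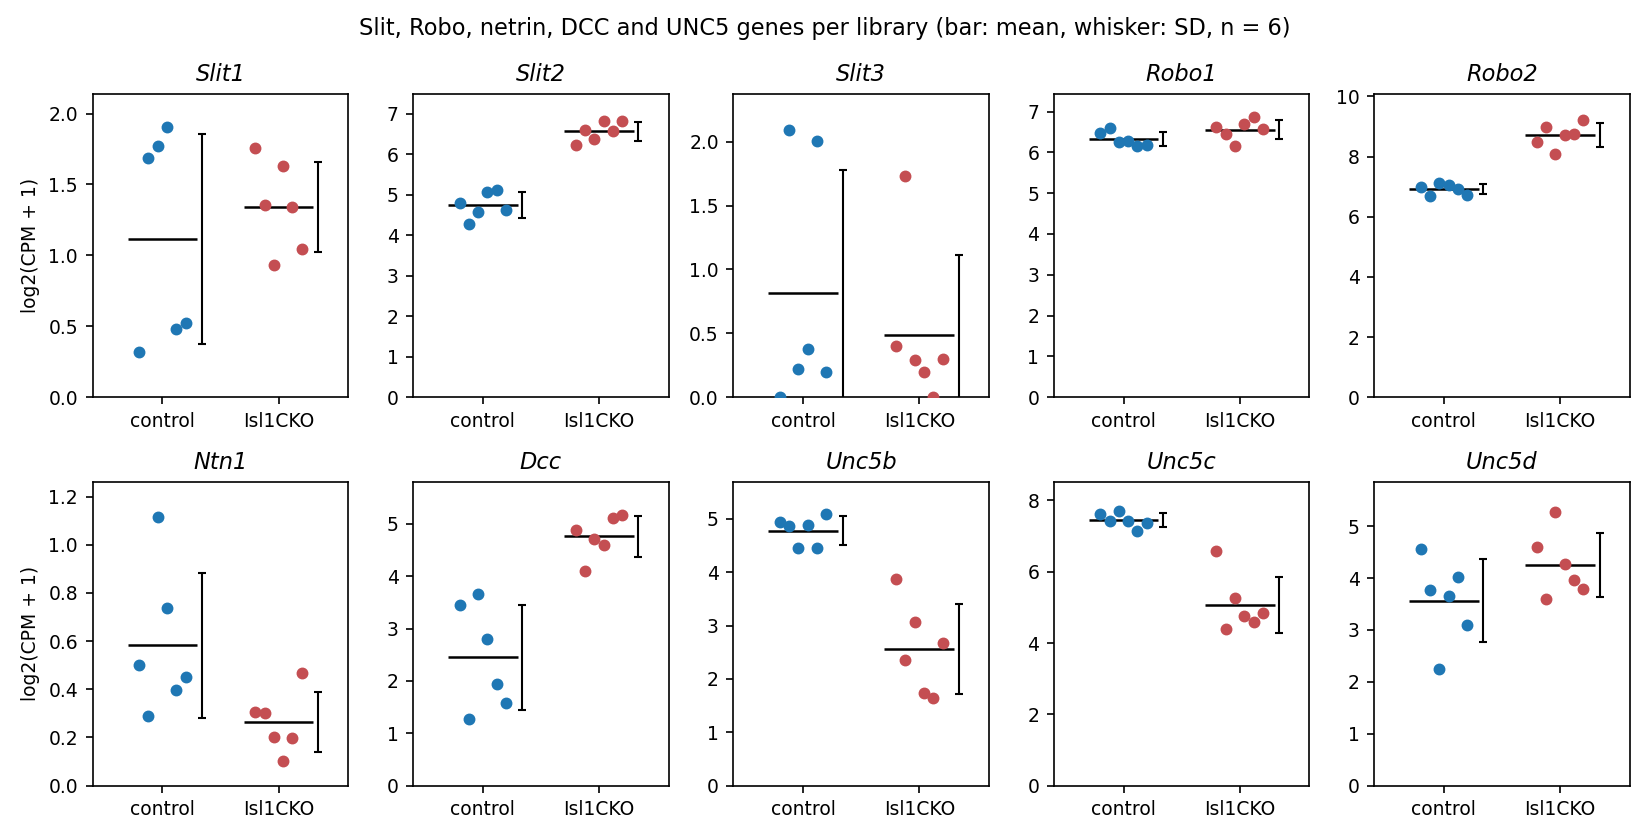
Level of each of the 10 genes in every library, as log2(CPM + 1), with points for libraries, bars for group means and whiskers for the SD (n = 6 per group). Slit2, Robo2 and Dcc are higher in all 6 libraries labelled Isl1CKO than in any control, and Unc5b and Unc5c are lower in all 6.

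The promoters of Slit2 and Robo2, the ligand and receptor that rose together, and of Unc5b, which fell, are shown to place the results in sequence. RefSeq promoter entries (GRCm38.p6) were found for 6 of the 10 genes, namely Slit2, Slit3, Robo1, Robo2, Unc5b and Unc5c. For each, the window of 250 bases before the RefSeq start nearest to the GENCODE start was searched on both strands. That start lies 354843 bases from the GENCODE start for Robo1 and 348 bases from it for Unc5c. The motifs were TAAT, the core recognised by many homeodomain proteins, CTAATG, a longer form associated with ISL1, the E-box CANNTG, the GC box GGGCGG and the TATA box TATAAA. Every CTAATG match is also a TAAT match. Bases within the GENCODE gene were cut from the 3 promoters printed first, and capitals mark matches to the E-box, GC box or TATA box on either strand.
Slit2 promoter, chr5:47982905-47983137, plus strand: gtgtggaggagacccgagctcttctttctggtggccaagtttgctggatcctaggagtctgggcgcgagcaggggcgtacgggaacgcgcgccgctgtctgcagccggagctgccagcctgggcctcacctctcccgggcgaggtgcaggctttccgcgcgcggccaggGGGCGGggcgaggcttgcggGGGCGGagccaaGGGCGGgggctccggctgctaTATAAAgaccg
Robo2 promoter, chr16:74411826-74412075, minus strand: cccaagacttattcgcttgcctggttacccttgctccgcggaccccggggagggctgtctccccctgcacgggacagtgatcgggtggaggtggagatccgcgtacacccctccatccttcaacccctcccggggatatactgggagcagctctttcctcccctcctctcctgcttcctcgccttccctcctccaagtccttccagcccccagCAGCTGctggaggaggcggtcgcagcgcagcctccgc
Unc5b promoter, chr10:60831582-60831831, minus strand: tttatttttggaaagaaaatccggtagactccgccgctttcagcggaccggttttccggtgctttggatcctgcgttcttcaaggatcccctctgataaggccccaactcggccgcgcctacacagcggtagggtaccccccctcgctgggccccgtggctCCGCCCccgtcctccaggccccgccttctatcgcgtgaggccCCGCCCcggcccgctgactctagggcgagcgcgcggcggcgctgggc

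The Slit2 window held 3 GC boxes and 1 TATA box, the Unc5b window held 2 GC boxes, and the Robo2 window held 1 E-box. GC boxes were found in 32.7% of all 32851 RefSeq windows of this length, TATA boxes in 12.4% and E-boxes in 66.2%. TAAT was found in 54.9% of all windows but not in those of Slit2, Robo2 and Unc5b. These 3 windows had GC contents of 69.6%, 65.6% and 66.8%, against a median of 52.4% over all windows, and the part of base composition in this was not tested. Among the members that were not called, the Robo1 window held 1 TAAT and 3 E-boxes, and the Slit3 window held 6 GC boxes and no TAAT. The Unc5c window held 1 CTAATG match, which 6.36% of all windows contain, 96 bases before the RefSeq start and on the opposite strand. Because that start lies inside the annotated gene, the match is within the GENCODE gene and not upstream of it. It is shown in capitals, as read on the gene's own strand, with its flanks.
Unc5c match, chr3:141465459-141465482, plus strand: ggggcagagCATTAGcagccggga
These matches are descriptions of letters in the windows, and no binding was measured.

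Among the ligands, Slit2 (ENSMUSG00000031558, chromosome 5, 47983138 to 48307733, plus strand) had the highest level per length and was the only one called. Its level ran from 18.3 to 33.8 CPM with a median of 25.2 CPM in controls, and from 73.2 to 111 CPM with a median of 94.5 CPM in libraries labelled Isl1CKO. The lowest library labelled Isl1CKO thus lay above the highest control. Means were 26.3 ± 6.04 and 94.4 ± 15.5 CPM (SD, n = 6), and edgeR put the difference at 1.84 ± 0.16 (SE) on the log2 scale, adjusted p = 3.07e-06, or 3.59-fold higher. Without the 3 libraries that held transcripts of both sexes it was 1.90 (edgeR adjusted p = 3.17e-04).

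Slit1 (ENSMUSG00000025020, chromosome 19, 41600257 to 41743665, minus strand) was near the floor in some libraries and split within the controls. Control replicates 2, 3 and 4 had 2.22, 2.42 and 2.74 CPM, whereas replicates 1, 5 and 6 had 0.249, 0.396 and 0.439 CPM. The libraries labelled Isl1CKO lay between these extremes, from 0.903 to 2.38 CPM with a median of 1.54 CPM. The log2 fold change was 0.17 with a 95% interval from -1.12 to 1.46 (edgeR adjusted p = 0.906), an interval that spans sizeable changes in both directions.

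Slit3 (ENSMUSG00000056427, chromosome 11, 35121224 to 35708507, plus strand) was present in few libraries. Control replicates 2 and 5 held 44 and 38 counts and replicate 2 of the libraries labelled Isl1CKO held 30, while the other 9 libraries held 0 to 4. The gene did not pass the filter. Without the filter its difference in edgeR was -1.08 ± 1.16 (SE) on the log2 scale, adjusted p = 0.705.

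Ntn1 (ENSMUSG00000020902, chromosome 11, 68209364 to 68400823, minus strand), the netrin-1 gene, was at or near the floor in these neurons. Libraries labelled Isl1CKO held 1 to 5 counts and controls 3 to 14 counts, or at most 0.381 and 1.17 CPM. Without the filter the difference in edgeR was -1.33 ± 0.66 (SE) on the log2 scale, adjusted p = 0.303. As a secreted protein, netrin-1 usually reaches responding axons from other cells.

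Among the Slit receptors, Robo2 rose and Robo1 did not pass the threshold. Robo2 (ENSMUSG00000052516, chromosome 16, 73891839 to 74411825, minus strand) ran from 102 to 137 CPM with a median of 123 CPM in controls. In libraries labelled Isl1CKO it ran from 273 to 596 CPM with a median of 427 CPM. The groups were well apart, and the spread within libraries labelled Isl1CKO was wider (coefficient of variation 26.1% against 11.8%). Means were 120 ± 14.2 and 431 ± 112 CPM (SD, n = 6), and edgeR put the difference at 1.84 ± 0.16 (SE) on the log2 scale, adjusted p = 2.23e-06, or 3.58-fold higher. Without the 3 libraries that held transcripts of both sexes it was 1.93 (edgeR adjusted p = 2.67e-05).

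Robo1 (ENSMUSG00000022883, chromosome 16, 72308306 to 73046095, plus strand) lies 845743 bases from Robo2 in the annotation and is read from the other strand. It ran from 70.3 to 96.5 CPM with a median of 75.9 CPM in controls and from 69.8 to 115 CPM with a median of 95.7 CPM in libraries labelled Isl1CKO, so the groups overlapped. The difference in edgeR was 0.24 ± 0.12 (SE) on the log2 scale, adjusted p = 0.253, and its 95% interval of -0.02 to 0.50 does not reach the size found for Robo2. Compared per kilobase of annotated exons, the ratio of Robo2 to Robo1 within a library was 1.03 to 1.78 in controls and 3.55 to 6.18 in libraries labelled Isl1CKO. Robo2 made up 59.4% ± 4.89 of the summed per-length level of these receptors in controls and 81.1% ± 3.46 in libraries labelled Isl1CKO (SD, n = 6). With the longest coding transcript as the length these shares were 57.0% and 79.6%.

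Slit2 and Robo2 differed between the groups by a like factor. The ratio of Slit2 to Robo2 per kilobase was 0.146 ± 0.0284 in controls and 0.151 ± 0.0299 in libraries labelled Isl1CKO (SD, n = 6), with ranges of 0.110 to 0.187 and 0.125 to 0.199. No test was made of this ratio, since the members were chosen with earlier results known.

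The netrin receptors moved in opposite directions. Dcc (ENSMUSG00000060534, chromosome 18, 71253634 to 72351069, minus strand), the receptor of netrin attraction, ran from 1.41 to 11.7 CPM with a median of 4.39 CPM in controls. In libraries labelled Isl1CKO it ran from 16.1 to 35.1 CPM with a median of 26.8 CPM. All libraries labelled Isl1CKO were above all controls, and the controls were uneven, with 9.89 and 11.7 CPM in replicates 1 and 3 and at most 5.93 CPM in the others. Means were 5.62 ± 4.33 and 26.9 ± 7.01 CPM (SD, n = 6), and edgeR put the difference at 2.26 ± 0.46 (SE) on the log2 scale, adjusted p = 0.00444, or 4.79-fold higher. Without the 3 libraries that held transcripts of both sexes it was 2.36 (edgeR adjusted p = 0.0357).

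Unc5c (ENSMUSG00000059921, chromosome 3, 141465216 to 141834924, plus strand), a receptor of netrin repulsion, had the highest level per length of the 10 genes in controls and fell in libraries labelled Isl1CKO. It ran from 141 to 209 CPM with a median of 170 CPM in controls and from 20.1 to 94.2 CPM with a median of 26.8 CPM in libraries labelled Isl1CKO. Replicate 1 of the latter, at 94.2 CPM, stood apart from the other 5, which reached at most 37.1 CPM. Means were 175 ± 23.8 and 38.0 ± 28.1 CPM (SD, n = 6), and edgeR put the difference at -2.20 ± 0.32 (SE) on the log2 scale, adjusted p = 3.94e-04. Without replicate 1 the estimate was -2.71 (edgeR adjusted p = 1.48e-07), and without the 3 libraries that held transcripts of both sexes it was -1.84 (edgeR adjusted p = 0.0160).

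Unc5b (ENSMUSG00000020099, chromosome 10, 60762593 to 60831581, minus strand), a receptor of the same family, also fell. It ran from 20.8 to 33.2 CPM with a median of 28.4 CPM in controls and from 2.12 to 13.5 CPM with a median of 4.76 CPM in libraries labelled Isl1CKO. Replicate 1 of the libraries labelled Isl1CKO was again the highest of its group. Means were 26.8 ± 4.97 and 5.81 ± 4.27 CPM (SD, n = 6), and edgeR put the difference at -2.21 ± 0.39 (SE) on the log2 scale, adjusted p = 0.00170, or 4.62-fold lower. Without the 3 libraries that held transcripts of both sexes it was -1.93 (edgeR adjusted p = 0.0331).

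Unc5d (ENSMUSG00000063626, chromosome 8, 28646717 to 29219636, minus strand) did not pass the threshold. It ran from 3.75 to 22.7 CPM with a median of 12.2 CPM in controls and from 11.1 to 37.5 CPM with a median of 16.4 CPM in libraries labelled Isl1CKO, and the groups overlapped. EdgeR put the difference at 0.68 ± 0.39 (SE) on the log2 scale, adjusted p = 0.319. For comparison, the 95% intervals of Unc5b and Unc5c were -3.04 to -1.38 and -2.89 to -1.51. The difference between family members was not tested.

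**Figure D2:**
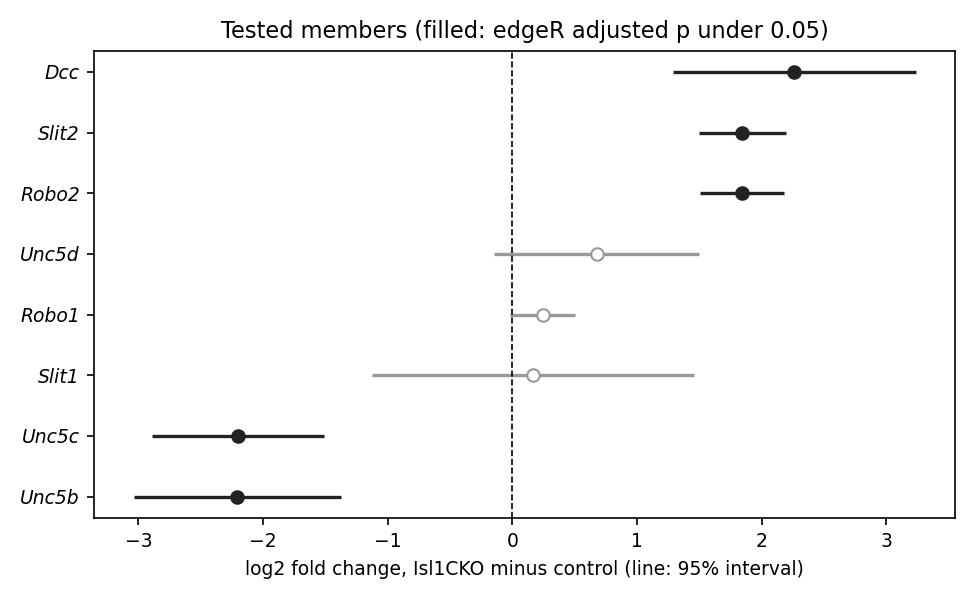
Log2 fold change (Isl1CKO minus control) of the 8 tested genes from edgeR's quasi-likelihood fit, with 95% intervals and filled points for genes past the adjusted threshold. Dcc, Slit2 and Robo2 lie between 1.84 and 2.26, Unc5b and Unc5c near -2.2, and the intervals of Unc5d, Robo1 and Slit1 include 0.

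The make-up of the netrin receptors differed accordingly. Per kilobase of exons, the ratio of Unc5c to Dcc ran from 12.3 to 83.3 in controls and from 0.479 to 2.27 in libraries labelled Isl1CKO. Dcc made up 2.71% ± 1.95 of the summed per-length level of Dcc, Unc5b, Unc5c and Unc5d in controls and 31.3% ± 10.6 in libraries labelled Isl1CKO (SD, n = 6). Unc5c made up 60.2% ± 5.07 and 26.2% ± 7.80. The summed level itself was 15.2 ± 1.75 and 7.09 ± 2.83 CPM per kilobase (SD, n = 6). Within the UNC5 family the share of Unc5d was 8.98% ± 4.42 in controls and 44.3% ± 11.4 in libraries labelled Isl1CKO (SD, n = 6), although its own level was not called. With the longest coding transcript as the length, the share of Dcc was 2.11% and 29.7% and that of Unc5c 73.7% and 38.1%. On that length, means in libraries labelled Isl1CKO were 3.94 CPM per kilobase for Unc5c, 2.13 for Unc5d and 0.990 for Unc5b. In controls they were 18.1, 1.33 and 4.57. Unc5c and not Unc5d then had the highest mean of these UNC5 genes in both groups, so the share of Unc5d depends on the length used.

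**Figure D3:**
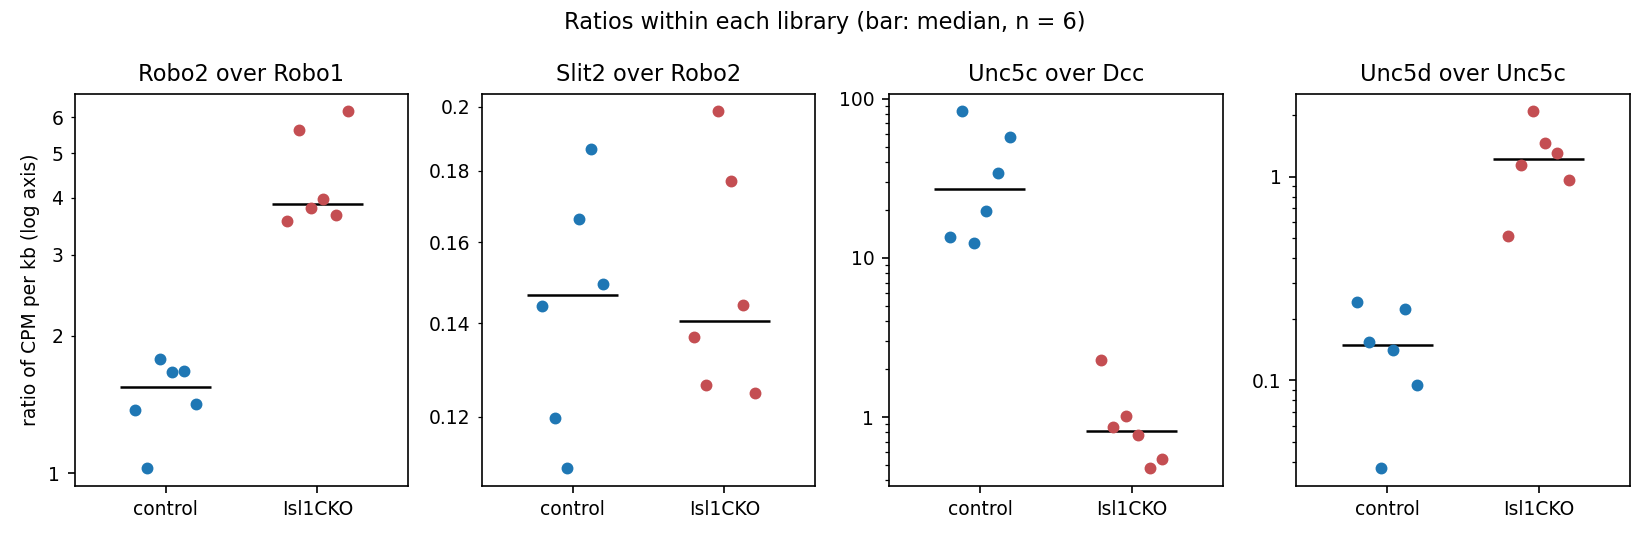
Ratio of CPM per kilobase between pairs of genes within each library, on log axes, with points for libraries and bars for medians (n = 6 per group). The groups do not overlap for Robo2 over Robo1, Unc5c over Dcc or Unc5d over Unc5c, and they overlap for Slit2 over Robo2, with medians of 0.147 in controls and 0.141 in libraries labelled Isl1CKO.

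Ordered by mean level per kilobase, the controls ran Unc5c (9.14 CPM per kilobase), Robo2 (7.07), Robo1 (4.83), Unc5b (4.29), Unc5d (1.33), Slit2 (1.03), Dcc (0.427), Slit1 (0.238), Slit3 (0.189) and Ntn1 (0.0838). The libraries labelled Isl1CKO ran Robo2 (25.4 CPM per kilobase), Robo1 (5.72), Slit2 (3.71), Unc5d (2.13), Dcc (2.04), Unc5c (1.99), Unc5b (0.929), Slit1 (0.268), Slit3 (0.0892) and Ntn1 (0.0325). In controls the ranges over libraries left a gap between Robo2 and Robo1 and between Unc5b and Unc5d, and all other neighbours overlapped. In libraries labelled Isl1CKO a gap separated Robo2 from Robo1, and every other neighbouring pair overlapped. With the longest coding transcript as the length, Slit2 moved above Unc5d in controls. In libraries labelled Isl1CKO Unc5c moved above Dcc and Unc5d, and Dcc moved above Unc5d.

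**Figure D4:**
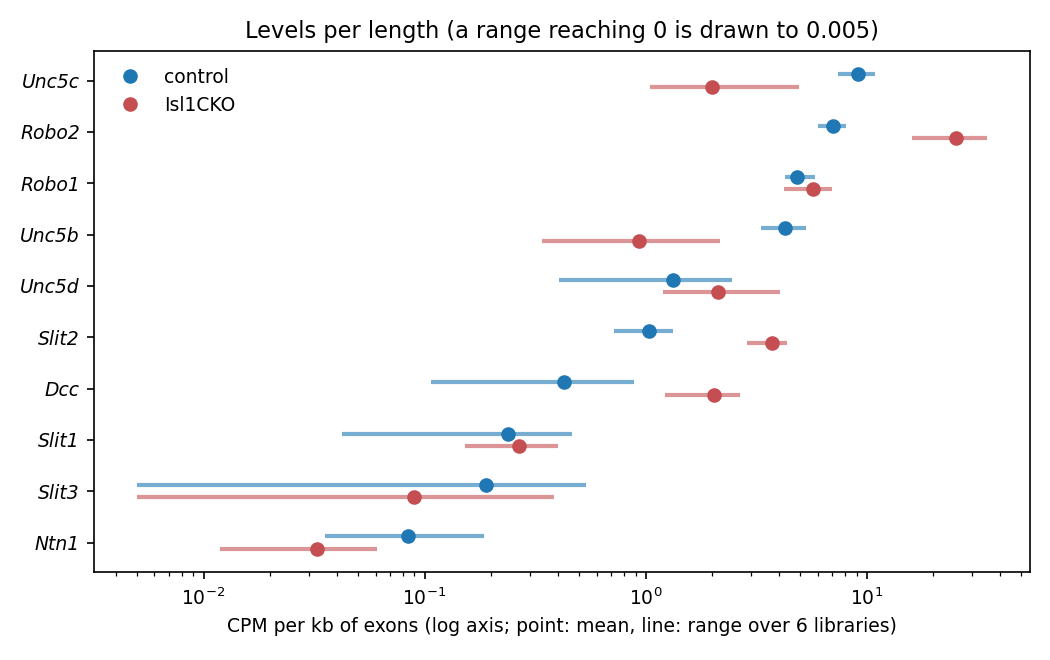
Mean level per kilobase of annotated exons for each gene in both groups on a log axis, with lines for the range over 6 libraries. Unc5c leads in controls at 9.14 CPM per kilobase and Robo2 leads in libraries labelled Isl1CKO at 25.4, while Slit1, Slit3 and Ntn1 stay lowest in both.

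Rows of the count table that lie inside or across the 10 genes were read as well. They lie at the same loci as the members and are not independent of them. Whether their reads come from transcripts of the host genes was not tested. There were 22 such rows, 21 of them sharing no exonic base with the host gene, and 11 passed the filter. Of these, 3 were called, which is read against 10.2% of all tested genes. Gm49658 and Gm49659, each annotated as a single exon within a Robo2 intron on the same strand, rose by 2.74 and 2.67 on the log2 scale in edgeR (adjusted p of 0.00507 and 0.0138), and their groups did not overlap. Gm49660, also within Robo2, was not called, at 0.72 (edgeR adjusted p = 0.670). Gm15688, an antisense model that shares 118 exonic bases with Unc5c, fell by 2.49 on the log2 scale (edgeR adjusted p = 0.0341). It held 199 counts in all against 16446 for Unc5c, and without stated use of strand the reads of these genes cannot be told apart. Within Slit2, the same-strand model Gm43426 had means of 1.31 ± 1.36 CPM (controls) and 5.20 ± 4.23 CPM (Isl1CKO; SD, n = 6), or 1.98 on the log2 scale, and was not called (edgeR adjusted p = 0.212). The 3 tested models within Unc5d had log2 fold changes from -1.08 to 0.06 and none was called.

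The wider pathways were read from a list of 64 other genes, of which 62 were in the table and 58 were tested. Of these, 17 were called, or 29.3% against 10.2% of all tested genes, with 8 higher and 9 lower. The list was chosen with earlier results of these data known, so this share is a description only. It was uneven, from 14.3% of netrin effectors to 75.0% of the 4 netrin-G genes and partners. The median log2 fold change of the 58 tested genes was 0.06, against 0.0045 for all tested genes, and the median absolute value was 0.42 against 0.27. Without the 3 libraries that held transcripts of both sexes 9 of the 17 calls were kept and 8 were lost. That fit had fewer samples, and the 8 kept their direction.

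Other receptors held 1 call among 5 tested. Neo1, which encodes neogenin, a DCC relative that binds repulsive guidance molecules and netrins, fell from 194 ± 28.6 to 106 ± 21.9 CPM (SD, n = 6), or -0.87 on the log2 scale in edgeR (adjusted p = 7.98e-04). Unc5a, at mean levels of 0.739 CPM (control) and 1.56 CPM (Isl1CKO), was not called (edgeR adjusted p = 0.471). Robo3 and Robo4 were too low to be tested.

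Other ligands and binding partners held 7 calls among 13 tested, 5 higher and 2 lower. Flrt3, whose product binds UNC5 receptors and latrophilins and can act with ROBO1, ran from 4.20 to 21.0 CPM in controls and from 112 to 214 CPM in libraries labelled Isl1CKO. Its difference in edgeR was 3.94 ± 0.33 (SE) on the log2 scale, adjusted p = 2.20e-06. Draxin, a secreted protein that binds DCC and netrin-1, rose from 58.2 ± 7.66 to 107 ± 8.32 CPM (SD, n = 6), or 0.88 on the log2 scale in edgeR (adjusted p = 5.38e-05). Rgma, a ligand of neogenin, fell from 64.3 ± 11.6 to 22.5 ± 8.24 CPM (SD, n = 6), or -1.51 on the log2 scale in edgeR (adjusted p = 3.81e-04). These 3 calls were kept without the 3 libraries that held transcripts of both sexes. Named after their values were seen, Flrt1 rose by 1.34, Nell2, a ligand of ROBO3, by 0.69 and the latrophilin gene Adgrl3 by 0.64 on the log2 scale in edgeR (adjusted p of 0.00350, 0.00237 and 0.0122). Ntn3 fell by 1.14 (edgeR adjusted p = 0.00941), but it shares 89 exonic bases with Tbc1d24 on the same strand, so its counts are uncertain. Without those libraries Adgrl3 and Ntn3 were no longer called, at estimates of 0.59 and -1.18 (edgeR adjusted p of 0.0966 and 0.0666). Adgrl3 and Rgma share 1582 and 258 exonic bases with models on the opposite strand, and the use of strand is not stated.

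Intracellular partners were read as separate lists. Of 15 tested partners of ROBO receptors 3 were called. Srgap2, a GTPase-activating protein gene whose product binds ROBO proteins, had a log2 fold change of -1.24, Enah, an actin regulator, one of -0.34 and Usp33, a deubiquitinase of ROBO1, one of 0.64 (edgeR adjusted p of 0.00229, 0.0358 and 0.0262). Without the 3 libraries that held transcripts of both sexes the estimates were -1.15, -0.35 and 0.58, and none of the 3 was called (edgeR adjusted p of 0.0500, 0.179 and 0.217). Of 21 tested partners of the netrin receptors 3 were called. Trim9, a ubiquitin ligase that binds DCC, rose from 27.9 ± 5.42 to 63.6 ± 22.6 CPM (SD, n = 6), or 1.19 on the log2 scale in edgeR (adjusted p = 0.00228). Its relative Trim67 had a log2 fold change of -0.57 and Pitpna, a phosphatidylinositol transfer protein gene, one of -0.87 (edgeR adjusted p of 0.00850 and 0.0141). Neither Trim67, at -0.57, nor Pitpna, at -0.65, was called without the 3 libraries that held transcripts of both sexes (edgeR adjusted p of 0.0787 and 0.135). Usp33 and Trim9 share up to 1478 and 153 exonic bases with a model on the opposite strand, and Trim67 shares 140 with one on the same strand.

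Netrin-G proteins are membrane-anchored relatives of netrins that bind their own partners and not DCC. Ntng1 fell from 194 ± 37.5 to 27.1 ± 9.27 CPM (SD, n = 6), and edgeR put the difference at -2.84 ± 0.21 (SE) on the log2 scale, adjusted p = 5.01e-07. Lrrc4c, which encodes its partner NGL-1, rose from 26.2 ± 11.3 to 113 ± 38.4 CPM (SD, n = 6), and edgeR put the difference at 2.10 ± 0.29 (SE) on the log2 scale, adjusted p = 2.13e-04. For Ntng2 the estimate was -1.95 (edgeR adjusted p = 0.0198), and without the 3 libraries that held transcripts of both sexes it was -1.40 and not called (edgeR adjusted p = 0.226). Ntng2 shares 558 exonic bases with 6530402F18Rik on the same strand, so its counts are uncertain. Lrrc4, the gene of the netrin-G2 partner, was not called (edgeR adjusted p = 0.535).

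**Figure D5:**
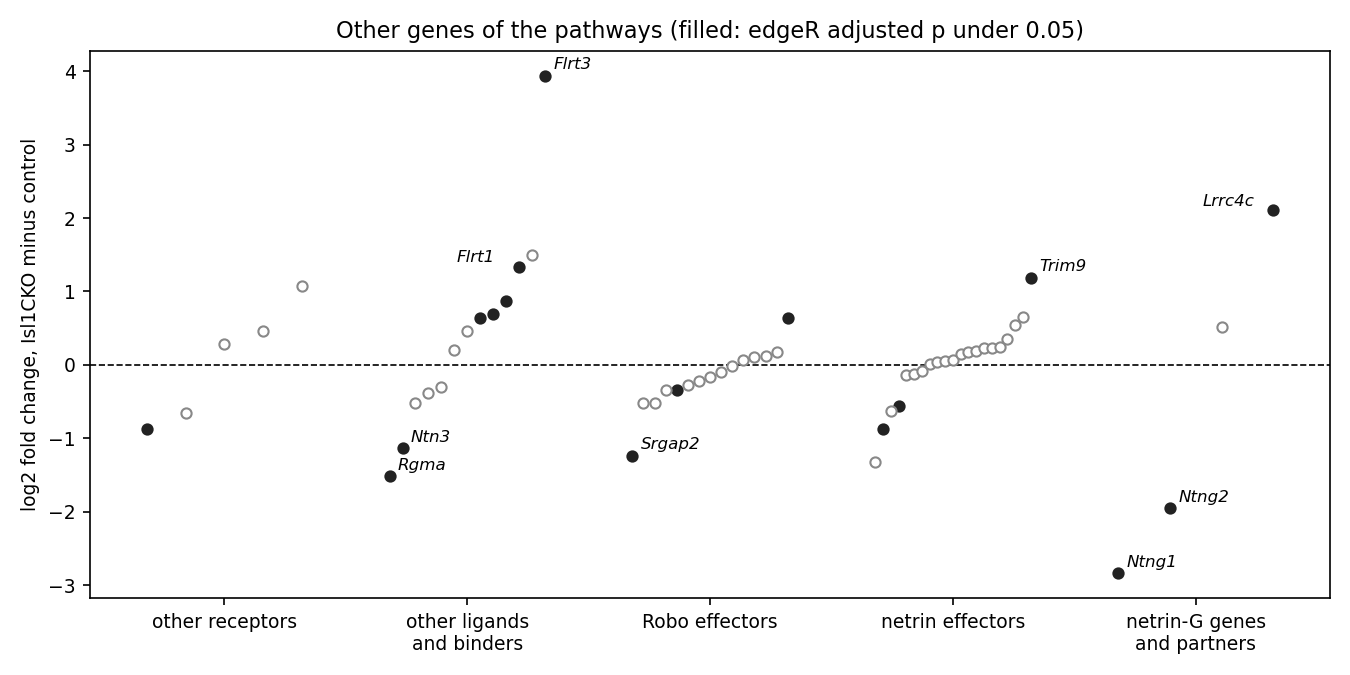
Log2 fold change (Isl1CKO minus control) of the 58 tested other genes of the pathways, 1 point per gene, grouped by role and filled where past the adjusted threshold in edgeR. Flrt3 at 3.94 and Ntng1 at -2.84 lie farthest from 0, and most effector genes lie close to it.

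The genes whose levels followed each called member most closely over the 12 libraries were sought among 9898 tested genes with an average abundance in edgeR (the log2 of a mean CPM over all libraries) of 3 or more, by Pearson's r of log2 CPM. A gene could pass that limit through the group where it is high. Examples are Shh, with means of 22.4 CPM (control) and 0.970 CPM (Isl1CKO), Brinp3 (0.416 and 161 CPM) and Cyp1b1 (70.4 and 2.34 CPM). All points share the split between the groups, so r is a description. Slit2 was followed by Ptprz1, Plpp3 and Brinp3 (r of 0.975, 0.974 and 0.970), and Robo2 by Nrn1, Phlda1 and Cstf2t (0.980, 0.977 and 0.961). Dcc was followed by Csmd3, Enc1 and Bnc2 (r of 0.945, 0.937 and 0.935), of which Bnc2 was not called (edgeR adjusted p = 0.0719). Unc5b was followed by Cyp1b1, Prkg1 and Dpp10 (0.977, 0.975 and 0.972), and Unc5c by Pcsk2, Shh and Gprc5c (0.978, 0.976 and 0.975). With the group means taken out, r over the same 12 libraries ran from 0.47 for Slit2 and Brinp3 to 0.90 for Unc5b and Cyp1b1. The genes were picked by r over these same libraries, so these values are not separate support.

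Markers of other cells in the dissected tissue were read in the same libraries. Mesenchyme markers (10 genes, 4 tested, 2 higher and 0 lower) summed to 72.0 to 122 CPM in libraries labelled Isl1CKO and 38.6 to 84.5 CPM in controls. The called genes were Tbx18, with means of 39.5 CPM (Isl1CKO) and 1.09 CPM (control), and Col3a1, with 14.1 and 2.66 CPM, while Col1a1, Lum, Dcn and Pdgfra averaged under 1 CPM in both groups. Col1a2, with 4.67 CPM (Isl1CKO) and 1.30 CPM (control), was higher but not called (edgeR adjusted p = 0.0602). Prrx1, which was not tested, had 4.72 CPM (Isl1CKO) and 0.337 CPM (control). Other members of this list went the other way. Pou3f4, the most abundant of them in controls, had means of 52.9 CPM (control) and 27.4 CPM (Isl1CKO) and was not called (edgeR adjusted p = 0.143). Twist1, which was not tested, had 1.13 and 0.013 CPM. Schwann cell and glial markers (10 genes, 7 tested, none called) summed to 17.5 to 490 CPM and 17.8 to 212 CPM, and macrophage markers (11 genes, 10 tested, none called) to 2.17 to 779 CPM and 3.48 to 402 CPM. Markers of otic epithelium and hair cells reached at most 19.1 CPM in sum in any library and those of endothelium 35.2 CPM, with Atoh1 and Cdh5 not listed in the table used here and Gfi1, Oc90, Cldn5 and Tek under 1 CPM in every library. Tbx18 and Col3a1 thus moved in the same direction as Slit2, Robo2 and Dcc, as did the means of Col1a2 and Prrx1. The mesenchyme list as a whole was mixed, and its part in the results for the guidance genes was not tested. With the macrophage and glial levels as covariates the log2 fold changes were 1.70 for Slit2, 1.79 for Robo2, 2.33 for Dcc, -2.30 for Unc5b and -2.38 for Unc5c (edgeR adjusted p of at most 0.0199).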

How the data were processed

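The authors deposited a table of whole-number counts per Ensembl gene, not normalized, with 1 column per library and 0 columns left unmapped. Per the submitters' processing notes, cutadapt 1.18, Bowtie 1.2.2, STAR 2.7.0c and featureCounts were used with GRCm38.p6. Their settings, the annotation and the use of strand are not given in the sources used here. Symbols were matched for 25620 identifiers, and coordinates and exon lengths are those of GENCODE M21 on GRCm38.

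Genes were kept by filterByExpr (minimum count 10), scaled by TMM and tested over all 12 libraries with edgeR 4.0.16 (R 4.3.3, robust quasi-likelihood, no covariate), with Benjamini-Hochberg adjustment over 14813 genes and a threshold of 0.05. Standard errors are the absolute log2 fold change over the square root of F. Alternatives used limma 3.58.1 and DESeq2 1.42.0. The code was tested on simulated data. All 66 library pairs differed beyond counting noise. Technical libraries of 1 embryo could also do so, since amplified reads are not independent molecules, so this does not settle the replicate type. Members, lists and tests were chosen with earlier results of these data known. By a fixed rule the text names all members, up to 3 called genes with the smallest p per pathway list, the 3 closest genes per called member, and markers where a list is described. Flrt1, Nell2, Adgrl3, Ntn3, Unc5a, Lrrc4, Robo3, Robo4 and the gene models inside members fall outside it and were chosen after their values were seen.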

Additional observations from a re-analysis of the deposited data

Results flagged for a closer look

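Each of the 10 genes was checked in both groups for a library that stood apart from the other 5 by Dixon's criterion at the 95% level. Of 20 group values 2 were picked out, where chance gives about 1. Unc5c in replicate 1 of the libraries labelled Isl1CKO was at 94.2 CPM, against at most 37.1 CPM in the rest of its group and at least 141 CPM in controls. The same library was the nearest of its group to the controls for 3 of the 5 called genes, Slit2, Unc5b and Unc5c. Slit3 in replicate 2 of the libraries labelled Isl1CKO was at 2.33 CPM, or 30 counts, against at most 0.317 CPM in the rest of its group.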

How the results depend on the processing

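All 5 called members were called under each of the 20 other settings, with the same direction. Their log2 fold changes ran from 1.70 to 1.92 for Slit2, 1.73 to 1.94 for Robo2, 2.05 to 2.71 for Dcc, -2.65 to -1.93 for Unc5b and -2.71 to -1.84 for Unc5c. The highest adjusted p was 0.0357, for Dcc without Isl1CKO 2, 3 and 5. Robo1, Unc5d and Slit1 were called under none of them, with lowest adjusted p of 0.0874, 0.165 and 0.446, and the sign of Slit1 turned in 3. Without Isl1CKO 2, 3 and 5, 767 genes were called in place of 1511 over all genes and 9 in place of 17 among the other pathway genes, with fewer samples in that fit. With the levels of macrophage and Schwann cell markers in the model, 956 genes were called. Whether the shared replicate numbers pair the samples cannot be settled from 6 such pairs. Same-numbered libraries had correlations of -0.056 to 0.152 in their deviations from the group means, and 2 of 6 correlated best with their own number. With the replicate block 5 members, 17 other pathway genes and 1450 genes in all were called. Slit1 and Slit3 lay near the floor in some libraries and Ntn1 was low in all, and the part of depth in this was not tested.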
